A study of Mus musculus with 23 samples.

Results

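Interferon-stimulated genes and their regulators were followed here as 43 named genes, taken by symbol from the RNA counts of liver type 1 innate lymphoid cells (ILC1s) and natural killer (NK) cells, together with the accessible chromatin peaks that the authors assigned to the same genes. All 43 were among the 35645 genes of the RNA table, and all 43 passed the filter on low counts that left 17124 genes for testing. Among the chromatin data, 36 of the 43 had at least 1 peak, 81 of 51412 peaks in all, of which 80 were tested.

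RNA was sequenced from 4 mouse liver populations sorted by reporters for granzyme C and for S1pr5, a lymphocyte egress receptor. DP cells were ILC1s with current granzyme C that also carried the fate-map mark of past Gzmc expression (GzmC+GzmcFM+, 4 libraries, mice 3 to 6). FMSP cells were ILC1s with the mark only (GzmC-GzmcFM+, 4 libraries, mice 3 to 6), DN cells were ILC1s with neither (GzmC-GzmcFM-, 3 libraries, mice 2, 4 and 6), and NK cells were S1pr5eGFP+ (4 libraries, mice 1, 4, 5 and 6). Each RNA library held 1 population of 1 mouse, from 6 mice in all. In such bulk RNA, fewer expressing cells and less RNA per cell cannot be told apart. ATAC-seq, which counts transposase insertions in open chromatin, covered liver ILC1s, salivary gland ILC1s, liver NK cells and spleen NK cells with 2 libraries each from 50000 cells. For the ATAC libraries the labels disagree on the sort, since their cell type entries name the reporters while the design gives NK1.1+NKp46+ cells that are CD49a+ for ILC1s and CD49a-CD49b+ for NK cells. Strain, sex, age and any treatment are not given in the sources used here, and no group was labelled as infected or treated with interferon.

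Interferons are secreted cytokines, and those of type I are released by cells on sensing viral or other foreign nucleic acid. Type I interferons act through a receptor and JAK kinases on a complex that contains STAT2 and IRF9 and binds the interferon-stimulated response element (ISRE), whereas the response to interferon gamma runs through the gamma-activated site (GAS). The induced genes encode antiviral effectors, RNA sensors, antigen-processing subunits and the transcription factors that feed back on the pathway. NK cells and ILC1s both respond to interferons and produce interferon gamma themselves.

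Promoter sequence was at hand for 33 members in RefSeq (GRCm38.p6), as 40 windows from 250 bases before to 50 bases after a gene start. Oas2, Dhx58, Zbp1, Mx1, Mx2, Ifi27l2a, Rtp4, Usp18, Parp9 and Parp14 had no entry. The core of the ISRE, searched as GAAA, any 2 bases and GAAA again on both strands, was present in 3.44% of all 32851 promoters and in 37.5% of the 40 member promoters. Of the 9 members with an entry whose RNA was higher in ILC1s (named below), 8 held it, all but Irf7, whereas 7 of the other 24 members did. The GAS core, searched as TTCNNNGAA, a pattern that reads alike on both strands, was present in 8.3% of all promoters and in 11 of the 40. It was held by 3 of the 9 members called higher and by 8 of the other 24, and 1 GAS match overlapped an ISRE match, in Bst2. The last 160 bases before the start are shown for 5 members called higher that differ in the number and strand of their ISRE matches, and for Irf8, the only member called lower. Capitals mark matches to the ISRE core or its reverse complement, and overlapping matches run together, as in Isg15. The regions, read 5′ to 3′ along the gene, are chr5:120777660-120777819 on the minus strand for Oas3, chr19:34640729-34640888 on the plus strand for Ifit1, chr19:34583369-34583528 on the plus strand for Ifit3, chr4:156200819-156200978 on the minus strand for Isg15, chr11:58199396-58199555 on the plus strand for Igtp and chr8:120736198-120736357 on the plus strand for Irf8.
Oas3: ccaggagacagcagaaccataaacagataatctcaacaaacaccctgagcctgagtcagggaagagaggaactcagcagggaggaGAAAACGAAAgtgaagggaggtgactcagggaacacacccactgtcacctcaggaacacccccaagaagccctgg
Ifit1: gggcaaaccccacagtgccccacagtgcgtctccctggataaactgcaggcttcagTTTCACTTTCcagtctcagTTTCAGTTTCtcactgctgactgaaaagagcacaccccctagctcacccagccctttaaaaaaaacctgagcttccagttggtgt
Ifit3: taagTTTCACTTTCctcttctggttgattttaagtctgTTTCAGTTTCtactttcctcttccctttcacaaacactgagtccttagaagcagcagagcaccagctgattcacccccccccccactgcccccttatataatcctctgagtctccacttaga
Isg15: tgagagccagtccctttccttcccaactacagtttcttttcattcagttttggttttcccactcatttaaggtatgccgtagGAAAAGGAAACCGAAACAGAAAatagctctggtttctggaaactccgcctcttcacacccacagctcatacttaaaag
Igtp: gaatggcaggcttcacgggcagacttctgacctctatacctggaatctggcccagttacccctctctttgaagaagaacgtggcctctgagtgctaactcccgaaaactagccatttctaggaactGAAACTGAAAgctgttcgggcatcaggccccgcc
Irf8: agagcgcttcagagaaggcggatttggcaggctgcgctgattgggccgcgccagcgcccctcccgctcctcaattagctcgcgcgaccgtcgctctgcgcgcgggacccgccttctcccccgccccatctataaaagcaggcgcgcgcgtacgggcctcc
Oas3 and Igtp each held a single match, Ifit1 and Ifit3 held separate matches on the reverse strand, and the window of Irf8 held none. A match is a description of these letters, not a site of binding.

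In the mean of the 3 ILC1 populations against NK cells, 10 members were higher, Irf8 was lower, and 32 were not called at an adjusted p below 0.05. The 10 were Oas3, Ifit1, Rtp4, Ifit3, Oas1a, Igtp, Isg15, Bst2, Irf7 and Gbp2. Over all genes tested 2.9% were called higher and 3.02% lower, so 23.3% of the members stood against 2.9% of all genes on the higher side. The members' median log2 fold change was 0.40, against 0.08 for all genes tested, and 35 of 43 had a fold change above 0, against 55.1% of all genes. The 11 ILC1 libraries lay wholly above the 4 NK libraries for 6 members (Oas3, Rtp4, Ifit3, Oas1a, Igtp and Bst2) and wholly below them for Irf8. Of all genes, 2.4% lay wholly above and 2.51% wholly below. With mouse as a block term 17 members were higher and 2 lower, against 5.4% and 7.26% of all genes, and within mice 4 to 6 alone 16 were higher and 2 lower, against 5.47% and 7.72%. All 11 calls held in both of those fits. The 2 fits are not separate checks, since none of mice 1 to 3 gave both NK and ILC1 libraries. The block contrast thus rests largely on mice 4 to 6 as well.

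**Figure D1:**
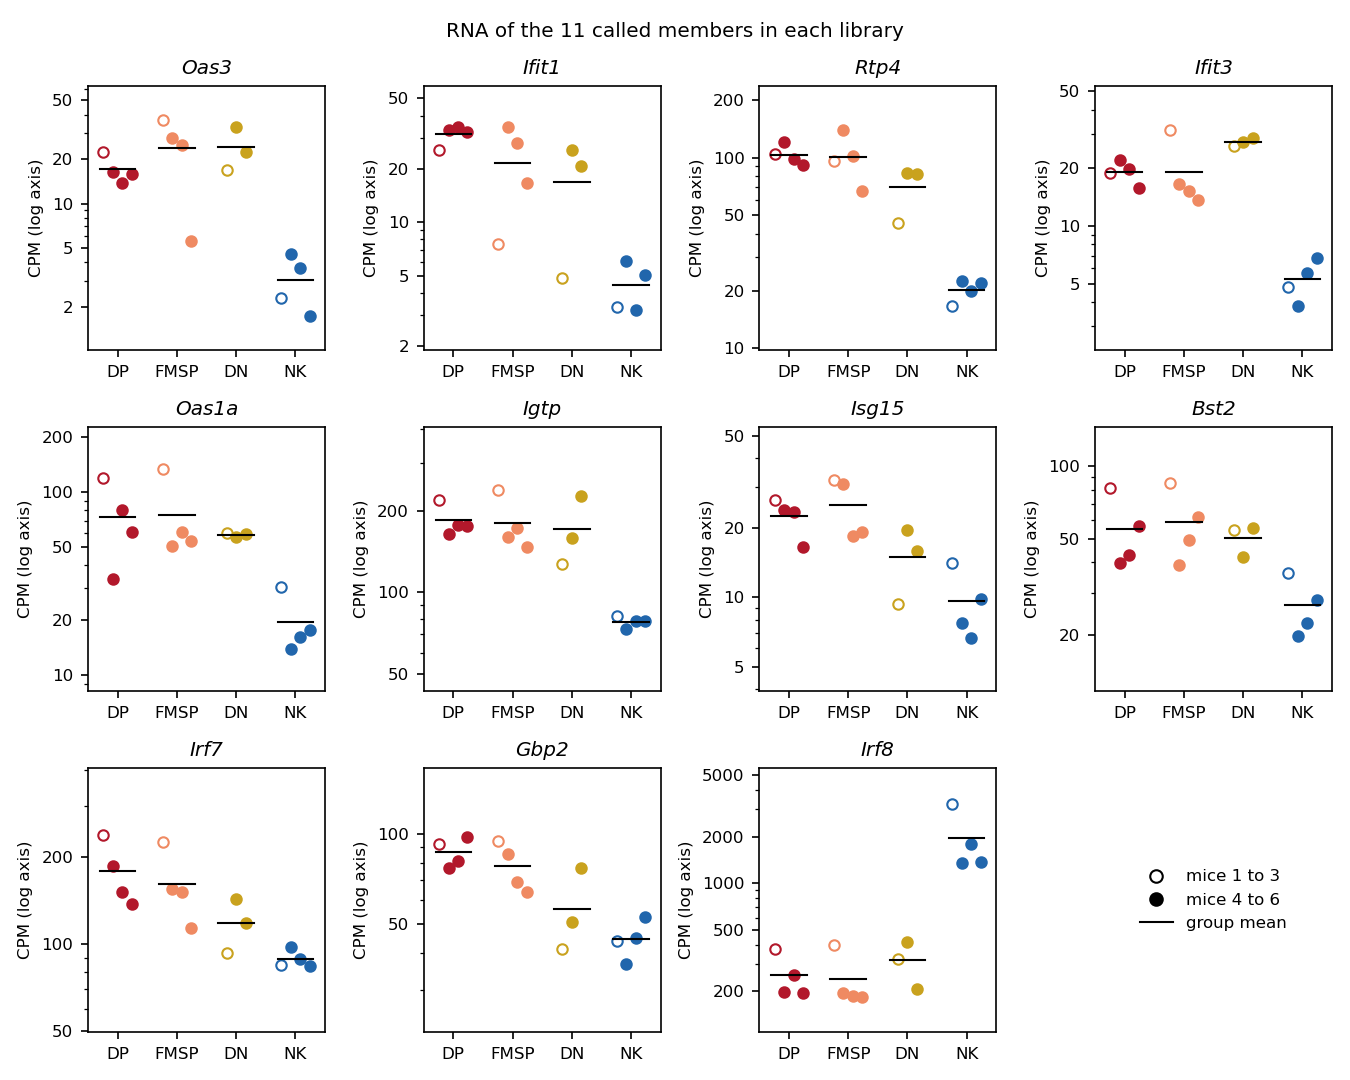
RNA level in CPM (log axis) of the 11 called members in every library, by population. Open points are mice 1 to 3, filled points mice 4 to 6 and bars group means; the 11 ILC1 libraries lie wholly above NK for Oas3, Rtp4, Ifit3, Oas1a, Igtp and Bst2, and wholly below NK for Irf8.

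The OAS genes encode enzymes that make 2-5A, the activator of the antiviral RNase L, and 2 of the 5 were called. Levels are given in CPM, counts per 1000000 on TMM-scaled library sizes, with the libraries in the order of the mouse numbers above. Oas3 had 22.5, 16.3, 13.7 and 15.8 CPM in DP, 36.8, 28.0, 25.1 and 5.59 CPM in FMSP and 16.8, 33.1 and 22.3 CPM in DN, against 2.29, 4.54, 3.65 and 1.72 CPM in NK. Every ILC1 library was above every NK library, and the lowest, FMSP of mouse 6, was close to the highest NK library. The fitted log2 fold change was 2.81 ± 0.47 (SE, edgeR adjusted p = 0.00142), a 7.01-fold difference. Oas1a had 120, 33.8, 79.9 and 60.7 CPM in DP, 134, 50.7, 60.9 and 54.4 CPM in FMSP and 60.2, 56.7 and 59.4 CPM in DN, against 30.5, 13.9, 16.1 and 17.8 CPM in NK. Its highest NK library, from mouse 1, was just under the lowest ILC1 library, and the log2 fold change was 1.81 ± 0.36 (adjusted p = 0.00561). Reads shared with close relatives such as Oas1g could be split between the copies, since the rule for shared reads is not given in the sources used here. Oasl1, at 4.24 to 33.6 CPM in ILC1s and 2.80 to 10.0 CPM in NK, and Oasl2, at 1.82 to 10.9 and 1.60 to 8.89 CPM, overlapped and were not called. Oas2 reached at most 3.24 CPM in ILC1s and 0.503 CPM in NK.

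The IFIT genes encode proteins that bind foreign RNA and block its translation, and 2 of the 3 were called. Ifit3 had 18.8, 22.1, 19.6 and 15.7 CPM in DP, 31.3, 16.4, 15.1 and 13.6 CPM in FMSP and 25.9, 27.1 and 28.7 CPM in DN, against 4.82, 3.83, 5.69 and 6.81 CPM in NK. The groups did not overlap, DN libraries were all above DP libraries, and the log2 fold change of the ILC1 mean was 2.02 ± 0.29 (adjusted p = 0.000379). Ifit1 had 25.5, 33.3, 34.3 and 32.5 CPM in DP, 7.52, 34.6, 27.8 and 16.6 CPM in FMSP and 4.85, 25.4 and 20.6 CPM in DN, against 3.30, 6.04, 3.21 and 5.06 CPM in NK. The lowest FMSP and DN libraries were those of mice 3 and 2, and the DN library of mouse 2 lay within the NK range. Its log2 fold change was 2.36 ± 0.47 (adjusted p = 0.0059). Ifit2 was not called, at 3.26 to 33.2 CPM in ILC1s and 16.6 to 27.7 CPM in NK, with a log2 fold change of -0.28 ± 0.51.

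Among the 12 other antiviral effectors, Rtp4 and Bst2 were called. Rtp4, a receptor transporter protein induced by type I interferon, had 104, 121, 98.6 and 91.2 CPM in DP, 95.7, 139, 102 and 66.7 CPM in FMSP and 45.5, 83.4 and 81.7 CPM in DN, against 16.6, 22.6, 20.1 and 22.0 CPM in NK. The 4 NK libraries were within a narrow band and the lowest ILC1 library, DN of mouse 2, stood clear above them. The log2 fold change was 2.15 ± 0.23 (adjusted p = 3.17e-05). Bst2, or tetherin, which holds budding virions at the cell surface, was at 39.0 to 85.5 CPM in ILC1s (median 54.5), against 36.3, 19.9, 22.4 and 28.1 CPM in NK. Its groups did not overlap, and the log2 fold change was 1.04 ± 0.26 (adjusted p = 0.0255). Isg20, a 3′ to 5′ exonuclease, was at 11.3 to 39.2 CPM in ILC1s and at 3.34 to 17.0 CPM in NK, with the highest NK value in mouse 1. It missed the threshold at a log2 fold change of 1.40 ± 0.41 (adjusted p = 0.0595) and passed it once mouse was a block term (1.77 ± 0.29, adjusted p = 0.00297). The GTPases Mx1 and Mx2, Rsad2 (viperin), its neighbour Cmpk2, and Ifi35, Xaf1, Ifi44, Samd9l and Ifi27l2a were not called. Their log2 fold changes ran from -1.27 ± 1.83 for Mx2 to 1.86 ± 1.75 for Ifi44, both near 0 counts in several libraries.

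Isg15, the ubiquitin-like protein that is conjugated to viral and host proteins, was the only called gene of the 6 around ISG15 and ADP-ribosylation. It was at 9.31 to 32.0 CPM in ILC1s (median 19.6), against 14.1, 7.75, 6.65 and 9.80 CPM in NK. A single ILC1 library, DN of mouse 2, lay within the NK range, and the log2 fold change was 1.09 ± 0.30 (adjusted p = 0.041). Usp18, which removes ISG15 and damps the receptor, had a log2 fold change of 0.19 ± 0.21. Those of the ubiquitin ligases Trim25 and Dtx3l and of the ADP-ribosyltransferase family members Parp9 and Parp14 ran from -0.07 ± 0.23 for Trim25 to 0.51 ± 0.44 for Parp14. None of the 5 RNA sensors and effectors was called. Ddx58 (RIG-I), Ifih1 (MDA5), Dhx58 (LGP2), Zbp1 and the kinase Eif2ak2 (PKR) had log2 fold changes from 0.10 ± 0.19 for Zbp1 to 0.68 ± 0.62 for Ifih1.

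The transcription factors moved in both directions. Irf8, which NK cells and dendritic cells use in their development, had 374, 198, 254 and 194 CPM in DP, 399, 194, 186 and 185 CPM in FMSP and 325, 417 and 209 CPM in DN, against 3258, 1356, 1795 and 1379 CPM in NK. The highest ILC1 library was far below the lowest NK library, and the log2 fold change was -2.85 ± 0.27 (adjusted p = 9.03e-06), 7.23-fold lower in ILC1s. Irf7, the factor that amplifies type I interferon production, was at 93.3 to 239 CPM in ILC1s (median 151), against 84.8, 97.9, 88.7 and 84.4 CPM in NK. Only DN of mouse 2 lay within the NK range among the ILC1 libraries, and the log2 fold change was 0.76 ± 0.20 (adjusted p = 0.0352). Irf9 and Stat2, which take part in the complex that binds the ISRE, were at 0.45 ± 0.21 and 0.00 ± 0.17. Irf1, at 0.22 ± 0.17, and its antagonist Irf2, at -0.32 ± 0.20, were not called either.

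Of the interferon-induced GTPases, which act against intracellular pathogens, Igtp and Gbp2 were called. Igtp had 219, 164, 178 and 175 CPM in DP, 239, 159, 173 and 147 CPM in FMSP and 127, 159 and 227 CPM in DN, against 81.6, 73.4, 78.2 and 78.7 CPM in NK. Its ILC1 libraries were all above the NK libraries, which differed little among themselves, and the log2 fold change was 1.19 ± 0.18 (adjusted p = 0.000716). Gbp2 was at 41.3 to 97.5 CPM in ILC1s (median 76.9), against 43.6, 36.8, 44.8 and 52.7 CPM in NK, with 2 DN libraries inside the NK range. The log2 fold change was 0.71 ± 0.19 (adjusted p = 0.0363). Gbp3 was at 3.50 to 49.1 CPM in ILC1s and at 23.4 to 75.4 CPM in NK. Its log2 fold change of -1.02 ± 0.54 was not called (adjusted p = 0.367), but passed in the fit with a mouse block (-0.83 ± 0.20, edgeR adjusted p = 0.0263) and when only mice 4 to 6 were used (-0.90 ± 0.23, edgeR adjusted p = 0.0233). The immunoproteasome subunits Psmb8 and Psmb9 and the peptide transporter Tap1, which supply MHC class I, had log2 fold changes of 0.34 ± 0.29, 0.38 ± 0.18 and 0.40 ± 0.24, none of them called without the block.

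The mouse block called 8 members more than the fit without it. Besides Isg20 and Gbp3, these were Ifi27l2a (1.37 ± 0.34, edgeR adjusted p = 0.0297), Eif2ak2 (0.71 ± 0.19, 0.0376), Parp14 (0.73 ± 0.18, 0.0245), Irf9 (0.57 ± 0.14, 0.0227), Psmb8 (0.29 ± 0.07, 0.0279) and Psmb9 (0.39 ± 0.11, 0.0497). Of these 6, Irf9, Psmb8 and Psmb9 were also called within mice 4 to 6 alone, as were Irf1 and Xaf1.

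Calls fell into a firmer and a weaker set. Oas3, Ifit1, Rtp4, Ifit3, Oas1a, Igtp and Irf8 stayed called in each of 23 other settings, among them every leave-one-out fit. Isg15, Gbp2, Irf7 and Bst2 lost the call in 11, 11, 9 and 5 of the 23, and the adjusted p reached 0.158, 0.163, 0.118 and 0.118. Without DN of mouse 6, NK of mouse 4, NK of mouse 5 or NK of mouse 6 the count of members called higher was 6 in each case.

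**Figure D2:**
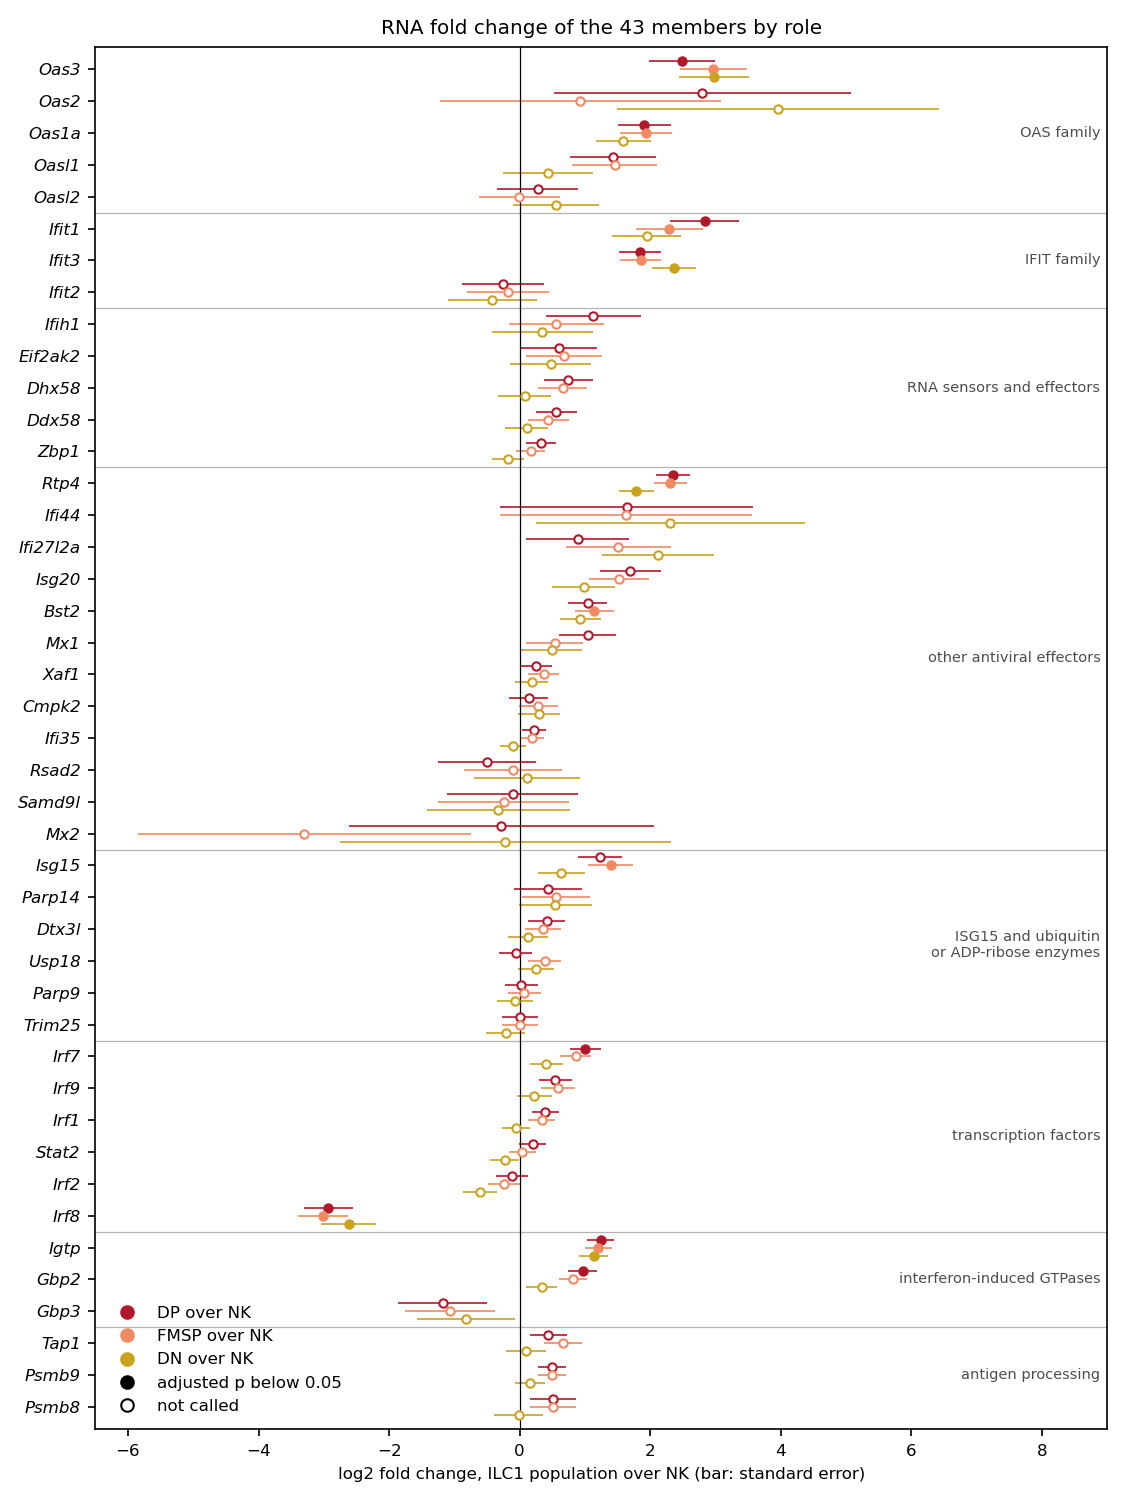
Log2 fold change in RNA of each of the 43 members, grouped by role, for DP, FMSP and DN over NK; bars are standard errors and filled points passed an adjusted p of 0.05. Oas3, Rtp4, Ifit3 and Igtp are filled to the right of 0 and Irf8 to the left in all 3 populations.

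Taken separately, DP had 8 members higher and 1 lower than NK, FMSP had 8 and 1, and DN had 4 and 1. The backgrounds of genes called higher were 2.51% in DP, 2.48% in FMSP and 1.81% in DN, and those called lower were 1.58%, 1.59% and 1.18%. These 3 comparisons share the 4 NK libraries, so each is given by its own values. Oas3, Rtp4, Ifit3 and Igtp were called higher and Irf8 lower in all 3 populations. Rtp4 had log2 fold changes of 2.35 ± 0.26 in DP, 2.31 ± 0.26 in FMSP and 1.79 ± 0.26 in DN, and Irf8 had -2.93 ± 0.38, -3.01 ± 0.38 and -2.62 ± 0.42. Ifit1 and Oas1a were called in DP and FMSP and narrowly missed in DN (1.94 ± 0.54, adjusted p = 0.0692, and 1.59 ± 0.42, adjusted p = 0.0588). Irf7 and Gbp2 were called in DP and narrowly missed in FMSP (adjusted p = 0.0543 and 0.0514), and Isg15 and Bst2 were called in FMSP and narrowly missed in DP (adjusted p = 0.0593 and 0.0699). All 4 near misses passed with a mouse block and under DESeq2. The 4 calls were themselves lost in some of 17 other settings, Bst2 in 10, Isg15 in 7, Irf7 in 5 and Gbp2 in 4. The call of Ifit1 in FMSP was also lost in 4 of 17 (edgeR adjusted p up to 0.0701). That of Igtp in DN was lost in 2 of 16 (edgeR adjusted p up to 0.0669). In the fit with a mouse block, the members called higher numbered 13 in DP, 12 in FMSP and 11 in DN, against 4.86%, 4.51% and 3.24% of all genes, and 2, 2 and 1 were lower, against 4.75%, 5.31% and 3.72%. In that fit Ifit1 (2.23 ± 0.41, adjusted p = 0.0116) and Oas1a (1.99 ± 0.23, adjusted p = 0.00102) were called in DN as well.

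Between the ILC1 populations themselves no member was called by edgeR, and none by DESeq2. The background there was 0.0584% of genes for DP over DN and 0.00584% for FMSP over DN and for DP over FMSP, so such comparisons called almost nothing in these libraries. At an unadjusted p below 0.05 there were 2 members for DP over DN, and 0 for FMSP over DN and DP over FMSP. The share of all genes at that unadjusted threshold was not computed, so these counts cannot be set against a background. The 2 were Gbp2 at a log2 fold change of 0.63 ± 0.24 (adjusted p = 0.414) and Irf7 at 0.59 ± 0.25 (adjusted p = 0.441). The 3 DN libraries include that of mouse 2, which had the lowest mean log2 CPM of the 43 members, 4.34, in a range from 4.34 to 5.45 over the ILC1 libraries and from 4.49 to 4.69 over the NK libraries.

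For some members the spread between libraries lay between sets of mice. The within-group SD of log2 CPM had a median of 0.49 over the members and 0.87 over all genes tested, and within mice 4 to 6 these were 0.30 and 0.49. Samd9l, an antiviral restriction factor, had 12.3, 237, 217 and 209 CPM in DP, 8.55, 205, 187 and 213 CPM in FMSP, 8.06, 226 and 201 CPM in DN, and 31.3, 253, 224 and 220 CPM in NK. In each population the library from mice 1 to 3 was the low one, and the SD of log2 CPM fell to 0.10 within mice 4 to 6, against 2.13 over all libraries. Ifi44, Gbp3 and Eif2ak2 were likewise at least 2-fold lower in the library of mice 1 to 3 in all 4 populations. Such a pattern held for 4 of the 43 members and for 9.7% of all genes, so the members' share was near the background. Ifi27l2a was at least 2-fold higher there in all 4, as were 1.61% of all genes. The members with the smallest SD were Ifi35 (0.21), Stat2 (0.24) and Igtp (0.26). Libraries of mice 1 to 3 held counts in 14592 to 17283 genes and those of mice 4 to 6 in 16193 to 20057, at totals of 51641248 to 73309063 counts over all 15 libraries. Each population had 1 library from mice 1 to 3, so both ILC1s and NK cells include that set. Whether it marks a batch is not given in the sources used here.

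**Figure D3:**
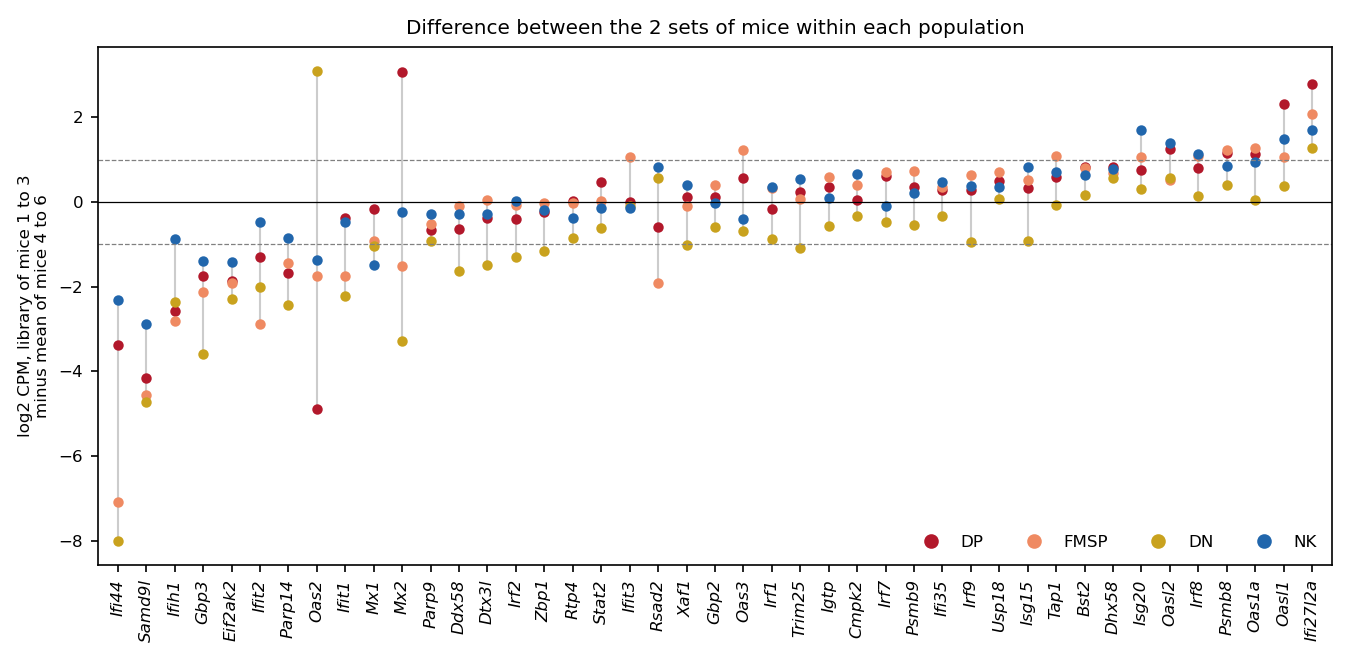
Difference in log2 CPM between the library of mice 1 to 3 and the mean of the libraries of mice 4 to 6, for each member and population; grey bars join the populations and dashed lines mark 2-fold. Ifi44, Samd9l, Gbp3 and Eif2ak2 lie below the lower line in all 4 populations and Ifi27l2a above the upper line.

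Other genes of the pathway were read from lists that leave out the 43 members. Of 59 further interferon-induced genes, 58 were tested, 11 were higher in ILC1s and 2 lower, with a median log2 fold change of 0.94, against 2.9%, 3.02% and 0.08 for all genes tested. The highest were Parp12, an ADP-ribosyltransferase, at 9.29 to 48.0 CPM in ILC1s and 0 to 0.489 CPM in NK, and the GTPase Tgtp1 at 84.8 to 221 CPM and 2.18 to 7.72 CPM. Uba7, the enzyme that activates ISG15 for conjugation, was higher by a log2 fold change of 1.33 ± 0.20 (adjusted p = 0.000712), and Phf11b was lower by -1.34 ± 0.14. Of 16 receptor and JAK-STAT genes 2 were higher and 4 lower, with a median of 0.04. Socs1, a feedback inhibitor of JAK kinases, was higher (1.66 ± 0.17) with the receptor chain Ifnar2 (0.75 ± 0.19), and the interferon gamma receptor chain Ifngr1 (-1.68 ± 0.12), Tyk2 (-1.24 ± 0.25), Jak1 (-1.21 ± 0.13) and Il10rb (-0.58 ± 0.14) were lower. Among 9 interferon genes only Ifng and Ifnk passed the count filter and neither was called, and Ifng stood at 46.0 to 160 CPM in ILC1s and 45.7 to 89.9 CPM in NK. In the ILC1 mean none of the sensors and adaptors (15 of 16 tested) and none of 13 class I presentation genes was called, and of 7 other IRF family genes Irf2bp2 was higher. The class I gene H2-T23 was called higher in DP (0.81 ± 0.19, edgeR adjusted p = 0.0217) and FMSP (0.79 ± 0.19, edgeR adjusted p = 0.0257).

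Sorted populations can carry other cells, and the defining markers were therefore read beside these results. All 8 liver ILC1 markers were higher in ILC1s, with a summed level of 1128 to 3144 CPM, against 24.0 to 41.1 CPM in NK. All 8 NK markers were lower, at 107 to 1016 CPM in ILC1s, against 5426 to 8067 CPM in NK. T cell markers moved with the members: 9 of 12 were higher in the ILC1 mean, the list summed to 2071 to 3680 CPM in ILC1s, against 621 to 915 CPM in NK, and no marker of the list was at 0 in every library. Among 8 plasmacytoid dendritic cell markers only Pacsin1 was higher, and the sums overlapped at 63.4 to 150 CPM in ILC1s, against 81.3 to 104 CPM in NK. Conventional dendritic cell (1 of 8 higher), B cell (1 of 8), neutrophil and monocyte (1 higher and 1 lower of 10), Kupffer cell (0 of 10), endothelial (0 of 7 tested), red cell (0 of 5) and hepatocyte markers (1 of 18) were mostly not called. Yet in the ILC1 mean all 18 hepatocyte, all 10 Kupffer cell and all 7 tested endothelial markers had log2 fold changes above 0. Their medians were 1.5, 1.26 and 1.49, larger than the members' median. By population, 5 of 18 hepatocyte markers were above 0 in DP (median -1.14), and all 18 in FMSP (3.16) and DN (2.52). Kupffer cell markers were above 0 for 9, 10 and 9 of 10 in DP, FMSP and DN, and endothelial markers for 7, 7 and 6 of 7. The members called higher numbered 8 in DP, 8 in FMSP and 4 in DN. The neutrophil and monocyte list summed to 618 to 1788 CPM in ILC1s, against 486 to 599.9 CPM in NK, so its sums did not overlap either, with Mmp9 higher and Ccr2 lower. The endothelial marker Lyve1 had no count in any NK library. Hepatocyte markers summed to 168 to 2607 CPM in ILC1s, against 77.2 to 224 CPM in NK, and were highest in DN of mouse 2 and FMSP of mice 5 and 6. Without those 3 libraries 10 members were called higher and 1 lower, and Bst2 was not among them (adjusted p = 0.0631). The share of all genes called in that fit was not computed. The part of T cell, myeloid, Kupffer cell, endothelial or hepatocyte transcripts in the members' differences was not tested.

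The chromatin at these genes differed between liver ILC1s and liver NK cells about as often as elsewhere. Of the 80 tested member peaks, 8 were higher and 5 lower, or 10% and 6.25%, against 9.83% and 8.85% of all peaks, and so at shares near the background. With single libraries left out the higher count ran from 3 (without liver ILC1 library 2) to 13, and the lower from 3 (without liver NK library 1 or liver ILC1 library 2) to 4. Among their 45 promoter peaks 7 were higher and 2 lower, against 13.7% and 4.86% of all promoter peaks. The promoter peaks higher in liver ILC1s were assigned to Oas3, Rsad2, Tap1, Bst2, Isg15, Parp14 and Ddx58. Their positions and those of the other peaks are given as in the authors' table, build mm10.

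The Oas3 peak, chr5:120775154-120776287, lies inside the gene, with its centre 1939 bases downstream of the RefSeq start, so it does not touch the promoter sequence shown above. It had 37.1 and 53.4 CPM in liver ILC1s, against 17.4 and 26.9 CPM in liver NK cells. Both ILC1 libraries were above both NK libraries, and the log2 fold change was 1.05 ± 0.19 (edgeR adjusted p = 1.86e-06). The Bst2 peak, chr8:71536983-71538074, which spans the start, had 29.2 and 32.5 CPM in liver ILC1s, against 18.8 and 16.7 CPM in liver NK cells (0.80 ± 0.20, adjusted p = 0.00102). That of Isg15, chr4:156200537-156201151, had 12.1 and 18.5 CPM in liver ILC1s, against 9.79 and 8.53 CPM in liver NK cells. It covers the promoter printed above, and its difference of 0.76 ± 0.26 (adjusted p = 0.0217) was lost without liver ILC1 library 2, at 0.35 ± 0.32 (adjusted p = 0.584), and under DESeq2, at 0.73 ± 0.29 (adjusted p = 0.0669). Rsad2, chr12:26456043-26456895, had 16.3 and 21.7 CPM in liver ILC1s, against 10.3 and 9.65 CPM in liver NK cells (0.94 ± 0.23, adjusted p = 0.000947), a call also lost without liver ILC1 library 2 (0.66, adjusted p = 0.142). The peak assigned to Tap1, chr17:34196335-34198863, had 65.8 and 73.5 CPM in liver ILC1s, against 36.3 and 39.6 CPM in liver NK cells (0.88 ± 0.19, adjusted p = 0.000124). It overlaps the RefSeq promoter window of Psmb8 rather than that of Tap1.

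The largest differences in the other direction lay away from gene starts. A peak that the authors typed as promoter and assigned to Irf2, chr8:46832226-46832998, sits inside the gene, 92867 bases from the RefSeq start. It had 5.68 and 5.07 CPM in liver ILC1s, against 15.4 and 17.1 CPM in liver NK cells (-1.60 ± 0.29, adjusted p = 2.28e-06), and 2.46 and 4.65 CPM in salivary gland ILC1s, against 11.2 and 11.8 CPM in spleen NK cells (-1.65 ± 0.28, adjusted p = 2.37e-08). An intergenic peak 6954 bases from Usp18, chr6:121238026-121238952, had 9.27 and 6.53 CPM in liver ILC1s, against 17.4 and 24.0 CPM in liver NK cells (-1.40 ± 0.24, adjusted p = 2.98e-07). In the other pair of organs it had 8.42 and 6.59 CPM in salivary gland ILC1s, against 28.6 and 21.8 CPM in spleen NK cells (-1.76 ± 0.22, adjusted p = 9.5e-15). For both peaks all 4 ILC1 libraries were below all 4 NK libraries. RNA of Irf2 and of Usp18 was not called.

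**Figure D4:**
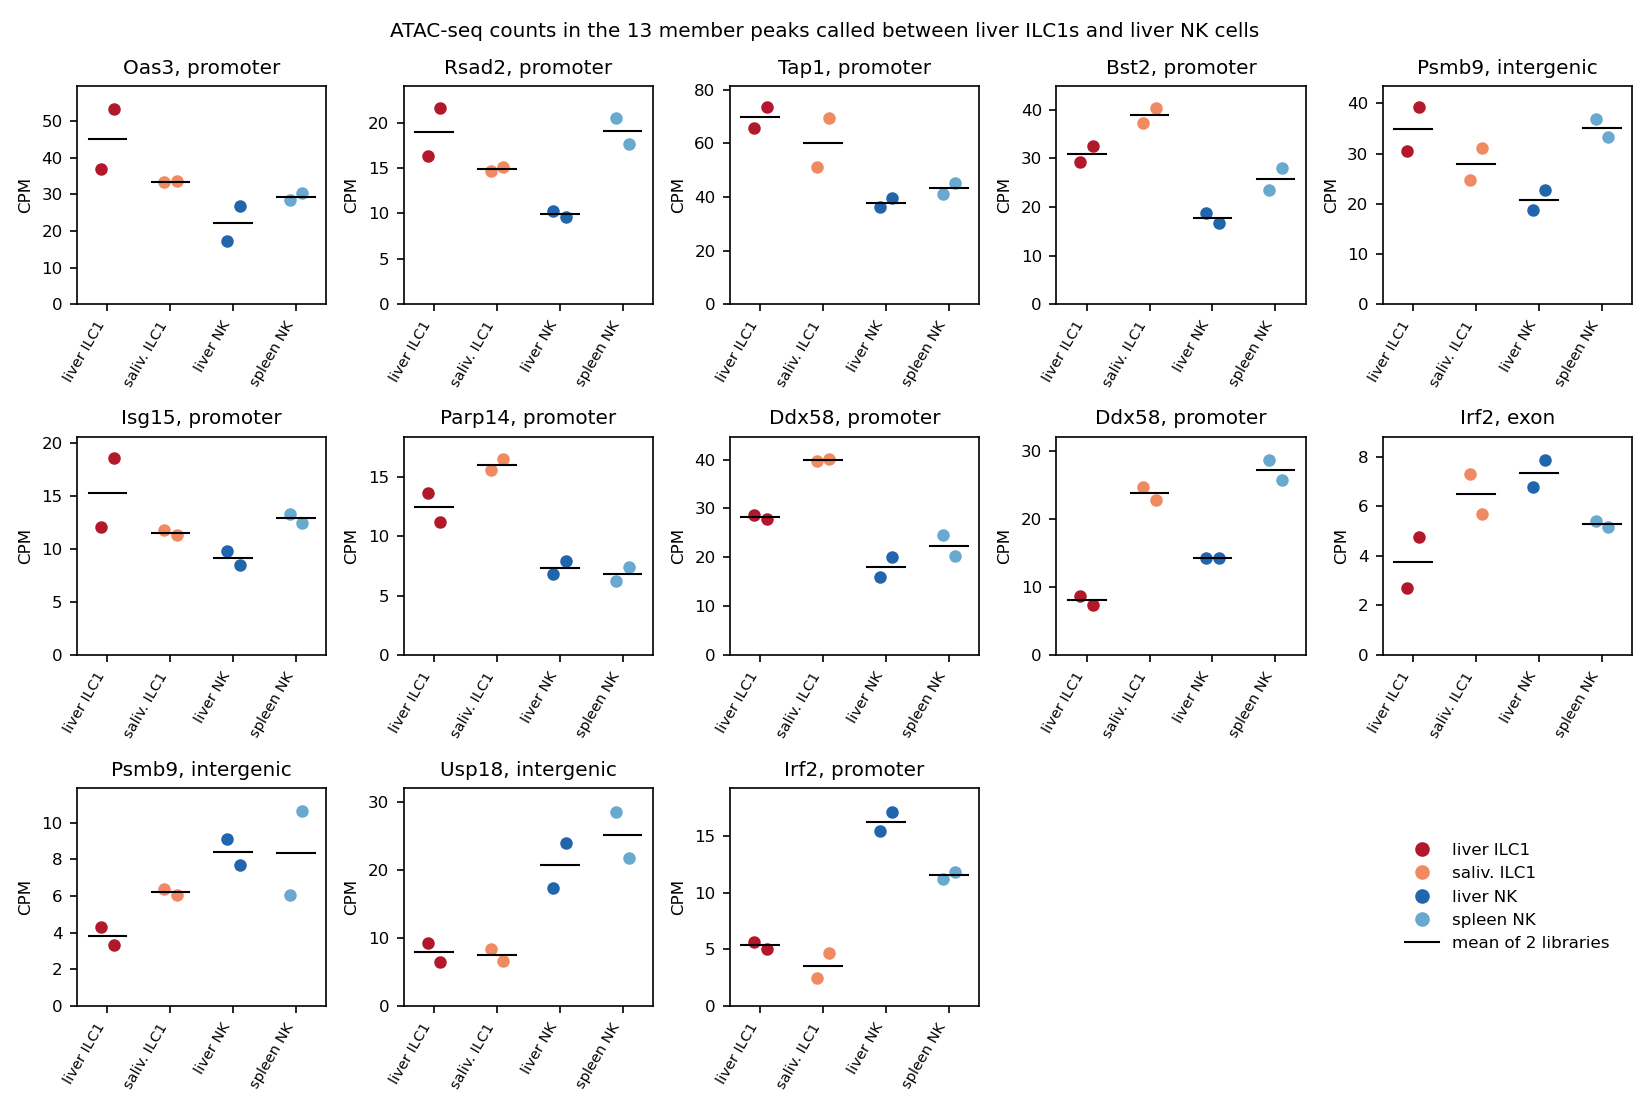
ATAC-seq level in CPM in each library for the 13 member peaks called between liver ILC1s and liver NK cells, from the highest log2 fold change to the lowest; titles give the assigned gene and the authors' peak type, points are single libraries and bars the mean of 2. The Irf2 promoter-typed peak and the intergenic peak near Usp18 are lower in both ILC1 groups than in both NK groups.

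Between salivary gland ILC1s and spleen NK cells, where organ and cell type change together and cannot be told apart, 14 member peaks were higher and 14 lower, against 22% and 26.2% of all peaks. Both peaks of Isg20 were higher, that over its start, chr7:78913195-78914414, at 57.7 and 58.1 CPM in salivary gland ILC1s, against 21.5 and 19.6 CPM in spleen NK cells (1.49 ± 0.18, adjusted p = 7.02e-15). In the liver the same peak had 16.9 and 22.3 CPM in ILC1s, against 20.5 and 20.6 CPM in NK cells. With both ILC1 groups pooled against both NK groups, a contrast that carries the same limit through its salivary gland and spleen libraries, 13 member peaks were higher and 11 lower, against 21% and 23.1%. Those over gene starts included Bst2 (0.70 ± 0.13), Gbp2 (0.45 ± 0.13, adjusted p = 0.0019) and Ddx58 (0.74 ± 0.13) on the higher side, and Irf8 (-0.51 ± 0.14, adjusted p = 0.000667) and Xaf1 (-0.52 ± 0.14) on the lower. The ILC1 over NK difference itself differed between the organ pairs for 20 member peaks, 9 of them higher and 11 lower in the pair of salivary gland and spleen, against 13.5% and 16.6% of all peaks.

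RNA and promoter chromatin were set side by side for the 36 members with a promoter peak, taking the one with the most counts where there were several. Promoter peaks are those typed so by the authors. RNA and peak were both higher in ILC1s for Oas3, Isg15 and Bst2, but the Oas3 peak lies inside the gene and overlaps no RefSeq promoter window of Oas3. The RNA was higher and the peak not called for 6, namely Rtp4, Ifit3, Oas1a, Igtp, Irf7 and Gbp2. Rtp4 had promoter counts of 18.8 and 19.7 CPM in liver ILC1s, against 17.0 and 17.2 CPM in liver NK cells (0.18 ± 0.21), beside its 4.44-fold higher RNA. For Irf8 the promoter peak had 39.5 and 37.9 CPM in liver ILC1s, against 46.7 and 56.6 CPM in liver NK cells (-0.42 ± 0.20, adjusted p = 0.126). The peak was higher without an RNA call for 4 (Rsad2, Tap1, Parp14 and Ddx58), and 22 had neither call. Among those 4, the Tap1 peak kept its call in all 8 other settings. The Rsad2 peak lost it in 1, the Ddx58 peak in 2 (adjusted p up to 0.211) and the Parp14 peak in 6 of the 8, including each of the 4 leave-one-out fits. The Tap1 peak overlaps the RefSeq promoter window of Psmb8. The peak over the window of Tap1, assigned to Psmb9, was not called (0.45 ± 0.20, edgeR adjusted p = 0.1). Ifit1, called higher in RNA, and Stat2 and Irf9 had no assigned peak. Their RefSeq promoter windows overlap peaks assigned to Ifit1bl2, Apof and Rnf31. Those over Ifit1 (0.37 ± 0.19, edgeR adjusted p = 0.173) and Stat2 (0.42 ± 0.20, edgeR adjusted p = 0.12) were not called in liver. That over Irf9 was higher in liver ILC1s (0.55 ± 0.19, edgeR adjusted p = 0.0274), without an RNA call in the main fit. The ATAC and RNA libraries came from different sorts, and no test was made across the assays.

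**Figure D5:**
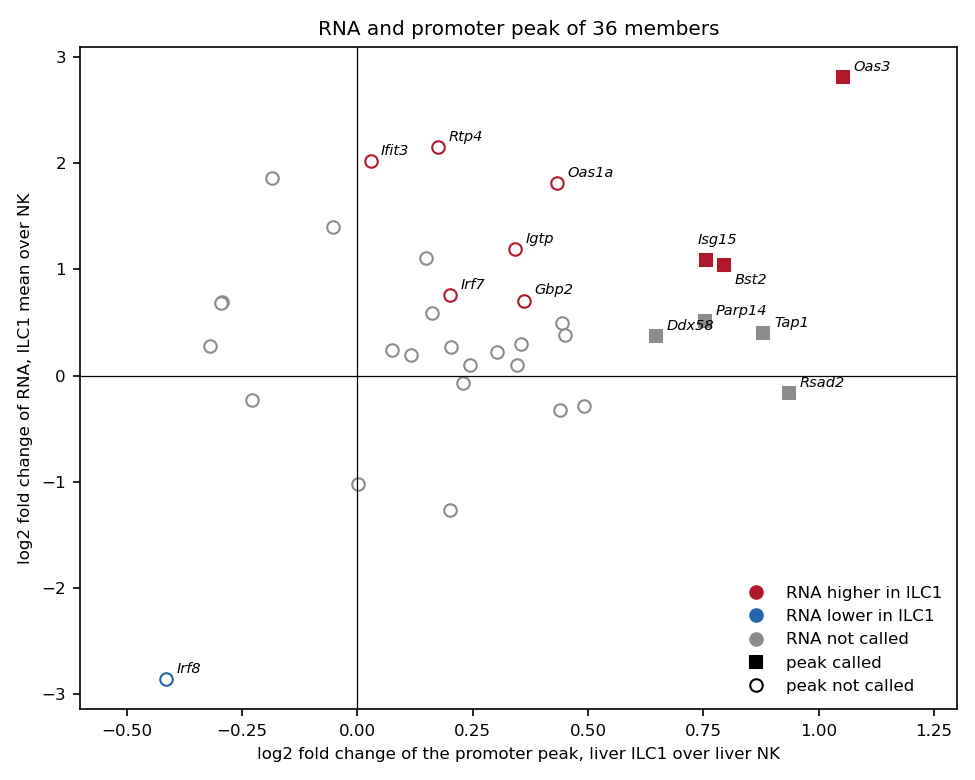
Log2 fold change of the promoter peak between liver ILC1s and liver NK cells (horizontal) against log2 fold change of RNA between the ILC1 mean and NK (vertical) for 36 members. Oas3, Isg15 and Bst2 are called in both, Rtp4 and Ifit3 lie high in RNA with peak changes of 0.18 and 0.03, and Irf8 is the only member with called lower RNA. Peaks are typed as promoter by the authors. That of Oas3 overlaps no RefSeq promoter window of the gene, and that of Tap1 overlaps the window of Psmb8.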

How the data were processed

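RNA values were deposited by the authors as estimated counts per gene for 15 libraries, all whole numbers, and ATAC-seq as read counts per peak of a shared peak set for 8 libraries. Per the submitters' processing notes, Salmon 1.6, DESeq2, Bowtie2, SAMtools, MACS2 and build mm10 were used. Peak genes and types are the authors'. Each table was fitted once with edgeR 4.0.16 in R 4.3.3 (filterByExpr at a minimum count of 10, TMM, robust quasi-likelihood, 1 mean per group, residual degrees of freedom 11 in RNA, 4 in ATAC). P-values are 2-sided and Benjamini-Hochberg adjusted over all genes or peaks tested. Log2 CPM used a prior count of 2. ATAC totals ran from 5609587 to 26944890 counts in peaks.

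RNA numbers are mice by the labels, so libraries with the same number share a mouse. Deviations correlated within a mouse at a median r of 0.113 (0.0336 to 0.469, 16 pairs). Between libraries of different mice the median r was -0.0266 (-0.327 to 0.447, 68 pairs), so the ranges overlapped. The fits were also run on simulated counts. These were drawn without mouse pairing or mouse sets, so that run cannot check the effect of either. The members, gene lists and tests were chosen with earlier results of these data known. All members could be named, grouped by role, with pathway genes and peaks named where called. Alternatives were DESeq2 1.42.0, other scalings, no filter, a mouse block, mice 4 to 6 alone, a term for the mouse set chosen after seeing the data, 3 libraries left out and each library left out. P-values for RNA measure the spread between libraries of single mice. The main fit had no mouse term, so it leaves out the sharing of mice between libraries. ATAC replicates are labelled as mouse replicates.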

Additional observations from a re-analysis of the deposited data

Results flagged for a closer look

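Within groups of 4 RNA libraries, 129 sets of values were looked at for a library far from the other 3, and 19 stood out. For normally spread values chance alone gives about 1 in 20. The share over all genes was not computed, so the members cannot be set against it. Of these, 14 lie in a library of mice 1 to 3.
In FMSP of mouse 3, Oas1a had 134 CPM (50.7 to 60.9 in the others), Ifit3 31.3, Samd9l 8.55, Ifi35 173, Ifi27l2a 32.3, Irf8 399, Gbp3 7.04, Psmb8 1590 and Tap1 645 CPM. In DP of mouse 3, Ifih1 had 4.59 CPM (25.9 to 29.7 in the others), Samd9l 12.3, Ifi27l2a 25.1 and Psmb8 1560 CPM. In NK of mouse 1 Samd9l had 31.3 CPM (220 to 253 in the others).
The remaining 5 were Oas2 at 0.503 CPM and Rsad2 at 2.98 CPM in NK of mouse 5, Mx2 at 0.434 CPM in FMSP of mouse 5, Trim25 at 24.3 CPM in DP of mouse 6 and Irf2 at 148 CPM in FMSP of mouse 4.

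The ILC1 minus NK difference in accessibility was set between organs, as salivary gland ILC1s over spleen NK cells minus liver ILC1s over liver NK cells. It differed for 20 of the 80 tested member peaks in the edgeR interaction test, 9 higher and 11 lower. Of all peaks, 13.5% were higher and 16.6% lower, so the members' shares did not exceed the background.
The differences of log2 fold changes above 0 were 1.54 for the Isg20 promoter peak, 1.42 for the exon peak of Ifit3, 1.22 for an intergenic Ddx58 peak, and 1.00, 1.32, 1.01, 1.21, 0.896 and 1.22 for 6 Irf2 peaks in the order of their positions.
Those below 0 were -1.97 for an intergenic Gbp2 peak, -1.46 for Xaf1, -1.29 for Rsad2, -1.09 for an intergenic Psmb9 peak, -1.06 for Zbp1, -1.01 for Oas1a, -0.941 for Mx1, -0.918 for Isg15, -0.795 and -0.862 for the Oas3 peaks and -0.786 for Mx2. Rsad2, for example, was higher in liver ILC1s than in liver NK cells (0.94) and not called between salivary gland ILC1s and spleen NK cells (-0.35). Of the 20, 7 kept the call in every leave-one-out fit: Isg20, Xaf1, Rsad2, Psmb9, Zbp1, Mx1 and the last of the Irf2 peaks. The other 13 lost it in at least 1 such fit, the exon peaks of Ifit3 and Irf2 in 6 of 8 each, and the Oas3 peak at -0.795 also with the replicate block (adjusted p = 0.0561). Without spleen NK library 2 the count of higher differences was 2.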

How the results depend on the processing

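Over the alternatives, 639 values of called members were recomputed: none changed sign and 68 lost the call. Of 856 for called peaks, none changed sign and 139 lost the call. With the mouse as a replicate block, members called higher numbered 17 (ILC1 mean), 13 (DP) and 11 (DN), and lower 2 (ILC1 mean), 2 (DP) and 2 (FMSP). Within mice 4 to 6 the numbers were 16, 14 and 10 higher, and 2 (ILC1 mean) and 2 (DP) lower. There 5.47% and 7.72% of all genes were called higher and lower in the ILC1 mean. For DP and DN within mice 4 to 6, and for the alternatives that follow, shares of all genes or peaks were not computed. Those counts cannot be set against a background. The term for the mouse set, chosen after seeing the data, gave 8 higher in DN and 2 lower in the ILC1 mean, DP and FMSP. The replicate block changed no other count by more than 1.5 times. DESeq2 gave 7 peaks with a lower organ difference, against 11. With single libraries left out, members called higher ranged from 6 to 10 (ILC1 mean), 6 to 9 (DP), 5 to 8 (FMSP) and 3 to 5 (DN), and called lower stayed at 1. Member peaks ranged from 3 to 13 higher and 3 to 4 lower in liver, 8 to 13 and 12 to 15 between salivary gland and spleen, 10 to 17 and 10 to 13 over both, and 2 to 9 and 7 to 13 for the organ difference. Leaving out liver ILC1 library 2 gave the 3 higher liver peaks, and spleen NK library 2 the 2 for the organ difference. ATAC libraries of the same replicate number correlated at r from -0.120 to 0.179 over 12 pairs. With 2 libraries in each group the deviations mirror each other. These values therefore cannot settle whether the replicate numbers pair the libraries. Scaling by library totals moved the median log2 fold change of all genes by 0.13 in the ILC1 mean and gave 11 members higher and 1 lower. Oas2, Mx2 and Ifi44 were too sparse for a stable fold change.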
